A study of Saccharomyces cerevisiae with 16 samples.

Results

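The short introns that interrupt coding sequences (CDS) outside ribosomal protein genes were followed through 16 RNA-seq libraries of *Saccharomyces cerevisiae*. An intron was a member when its row in the deposited intron table had a single segment, a length below 200 bp and a nuclear location, when its gene also had a CDS row, and when the gene encoded neither a cytosolic ribosomal protein nor one of 10 meiotic proteins. This gave 133 of 297 nuclear introns whose host had a CDS row. The other introns were 89 CDS introns of ribosomal protein genes, 41 further CDS introns outside ribosomal proteins, 24 introns in 5′ untranslated regions (UTR) and 10 introns of the meiotic genes. The rule used no expression value, although it was set with earlier results of these data known.

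Nuclear introns are removed by the spliceosome, in which the U1 small nuclear RNA pairs with the 5′ splice site and the U2 small nuclear RNA pairs with the branch point sequence, whose bulged adenosine attacks the 5′ splice site. Budding yeast has few introns, most genes that carry one carry only one, usually near the start of the gene, and their 5′ splice sites and branch points adhere closely to a consensus. Ribosomal protein genes hold the long, heavily transcribed introns, whereas the short introns sit in genes for ubiquitin conjugation, vesicle traffic, the cytoskeleton, RNA processing and other basic functions. An unspliced message usually meets a stop codon soon after the splice site and can be degraded by nonsense-mediated decay.

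Cells had been grown in YPD with a single stressor, with re-inoculation every 8 h over a total of 24 h. The LiCl cultures were a wild type, a strain labelled as the deletion of the 5′ UTR intron of *RPS22B* (fused to GFP), and the GFP high and GFP low populations sorted from an *RPS22B*-GFP strain, to which the ribo-depleted labels add an *mCherry* cassette at *HO*. The methods of the study give the sorted cells a shorter time in LiCl than the 24 h of the labels, at a fixed concentration after dilution of an overnight culture. The other cultures were the wild type in 0.4 M NaCl, in 20% glucose, in 0.32 µg/ml myriocin, an inhibitor of sphingolipid synthesis, or in 0.85 µM fenpropimorph, an inhibitor of ergosterol synthesis. Apart from the sorted cells, LiCl, myriocin and fenpropimorph cultures had been picked from concentration gradients for a similar growth inhibition. For NaCl and glucose only 1 concentration was used. The paper describes the glucose culture as late exponential and the LiCl culture as mid-exponential. Glucose therefore cannot be told apart from growth phase in these comparisons. A culture without a stressor was not analysed here. From each of the 8 RNA samples, 1 library was made of polyadenylated RNA and 1 after ribo-depletion. Cultures were therefore not replicated within a library type, and differences between them could not be set against replicate error.

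Reads on CDS numbered 29557254 to 50337762 in polyadenylated and 36377857 to 53234402 in ribo-depleted libraries, and reads on the 133 introns numbered 6321 to 29467 and 6506 to 18121. The intron deletion and sorted libraries held 2 to 5 reads of *LYS2* and 0 or 1 of *HIS3* but at least 1225 of *MET17*, and the wild-type libraries held 4741 to 13584 reads of *LYS2*, 1120 to 5097 of *HIS3* and 0 or 1 of *MET17*. The strain background of those LiCl libraries therefore cannot be told apart from the intron deletion and the sort, and ratios of LiCl over other cultures use the wild-type LiCl library alone. Where all 4 LiCl libraries are set against the 4 others, the LiCl side also holds another strain background. Intron retention is the read count per bp of the intron over the read count per bp of the CDS, in percent, with 0.5 added to each count. Reads that only overlap an intron raise this density, most in introns shorter than the 100-bp reads. Retention can therefore exceed 100% and is not the share of unspliced molecules. This changes the level of an intron and not its ratio between libraries.

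The splice signals of introns at the extremes of retention and of those that lack a consensus signal are shown first, because the retention levels described below differ between these classes. Sequences are from the RefSeq R64 assembly, read 5′ to 3′ along the transcript. Capitals mark the first 6 bases of the intron, the branch point motif TACTAAC and the last 3 bases. *TUB1* (chrXIII:99260-99375, minus strand) and *SAR1* (chrXVI:138726-138864, plus strand) had the lowest retention, and *YHR218W* (chrVIII:558616-558714, plus strand) had the highest. *CIN2* (chrXVI:96154-96233, minus strand), *PTC7* (chrVIII:251156-251248, plus strand) and *CMC4* (chrXIII:652776-652847, minus strand) lack TACTAAC.
TUB1, 5′ end: GTATGTtcgatttgcc
TUB1, branch point: tttcatTACTAACttcaac
SAR1, 5′ end: GTATGTtatcaccctg
SAR1, branch point: gtccttTACTAACtttatt
YHR218W, 5′ end: GCATGTgtgctgccca
YHR218W, branch point: aagagaTACTAACaaaatg
CIN2, 5′ end: GTATGTtgaaactcat
CIN2, 3′ end: catattttcgtatactatttttttgtgTAG
PTC7, 5′ end: GTATGTttattgtttt
PTC7, 3′ end: actcagagactaacttttctcatatcaTAG
CMC4, 5′ end: GTTTGTaatattaact
CMC4, 3′ end: ttcactaacgttttttcacattaatttTAG

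Of the 133 introns, 132 lay between coding segments annotated in RefSeq. The exception was the intron of the dubious reading frame *YLR202C*. Their lengths ran from 49 bp in *YJR112W-A* to 194 bp, with a median of 94.0 bp, against medians of 405 bp for 87 single-segment ribosomal protein introns and 352 bp for 34 longer introns outside ribosomal proteins. The 5′ splice site GTATGT opened 95 of the 133 introns, GTAAGT 11, GTACGT 9, GCATGT 6 and GTATGC 6. TACTAAC stood on the transcribed strand of 102 short introns (76.7%), against 95.4% of the ribosomal protein introns and 82.4% of the longer introns. On the opposite strand it stood in 0 short introns, 3 ribosomal protein introns and 1 longer intron, and the 2 motifs searched overlap, since every TACTAAC is also an NACTAAC. Of the 31 short introns without it, 18 held NACTAAC, the same motif with any first base, and NACTAAC stood in 90.2% of all short introns, 100% of ribosomal protein introns and 91.2% of longer introns (3.76, 5.75 and 8.82% on the opposite strand). The last 3 bases were TAG in 62, CAG in 59, AAG in 11 and AGG in 1 short intron, *YJR112W-A*, a gene of unknown function. The length was a multiple of 3 in 47 introns, and 10 introns held no in-frame stop codon. *PTC7*, which encodes a protein phosphatase, was the only member with both properties, so that reading through its intron keeps the frame. Identical copies of the intron occurred elsewhere in the genome for 8 members, all in subtelomeric Y′ elements, and reads of those copies cannot be assigned with certainty.

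Averages of 10 or more reads on the intron and 10 or more on the CDS were reached by 132 of 133 members over the polyadenylated libraries and by 126 over the ribo-depleted libraries. The 7 members below it in at least 1 type were *POP8*, *RIM1*, *TMA20*, *SAE3*, *OSW2*, *SMD2* and *GMC2*. For the 126 introns above it in both, the median of the 16 libraries ran from 2.49 to 373%, with an overall median of 28.8% and quartiles of 15.8 and 53.4%. It was below 10% in 15 introns and at least 100% in 17. With read length added to the intron and CDS lengths, the overall median was 16.5%. The lowest levels were found in genes for the cytoskeleton, traffic, transcription and sugar metabolism. *TUB1*, the main gene for alpha-tubulin, had a median of 2.49%, *SAR1*, the GTPase that builds COPII vesicles, 3.82%, and *COF1*, cofilin, 4.04%. *RPO26*, a subunit shared by the nuclear RNA polymerases, had 5.44%, and *PMI40*, the phosphomannose isomerase that feeds protein mannosylation, 5.46%. Across the 126 introns the log2 level had a Spearman correlation of -0.61 with the log2 CDS read density of the host gene, which shares its CDS reads with the retention value.

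At the other end, *YHR218W*, *YML133C*, *YLL066C* and *YLL067C*, helicase-like open reading frames in Y′ elements, had medians of 373, 287, 277 and 272%. Their introns are identical, with 7 copies in the genome, and open with GCATGT. *LDS2*, a gene for a spore wall protein, had 331%, and *YJR112W-A* 256%. Introns with GTATGT and TACTAAC had a median of 21.0% (n = 66), those with another 5′ splice site and TACTAAC 33.6% (n = 31), those with GTATGT and no TACTAAC 46.0% (n = 24), and the 5 with neither 62.7%. The ranges overlapped, since *LDS2* carried both consensus signals and *PMI40* lacked TACTAAC. Retention had a Spearman correlation of -0.30 with intron length, and -0.19 when read length was added to the lengths. The 43 shortest (49 to 86 bp), the next 41 (87 to 105 bp) and the 42 longest introns (106 to 194 bp) had medians of 39.6, 26.8 and 17.4%, which became 20.5, 15.9 and 11.4% with read length added. These are descriptions of 126 introns that share libraries, with no test.

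**Figure D1:**
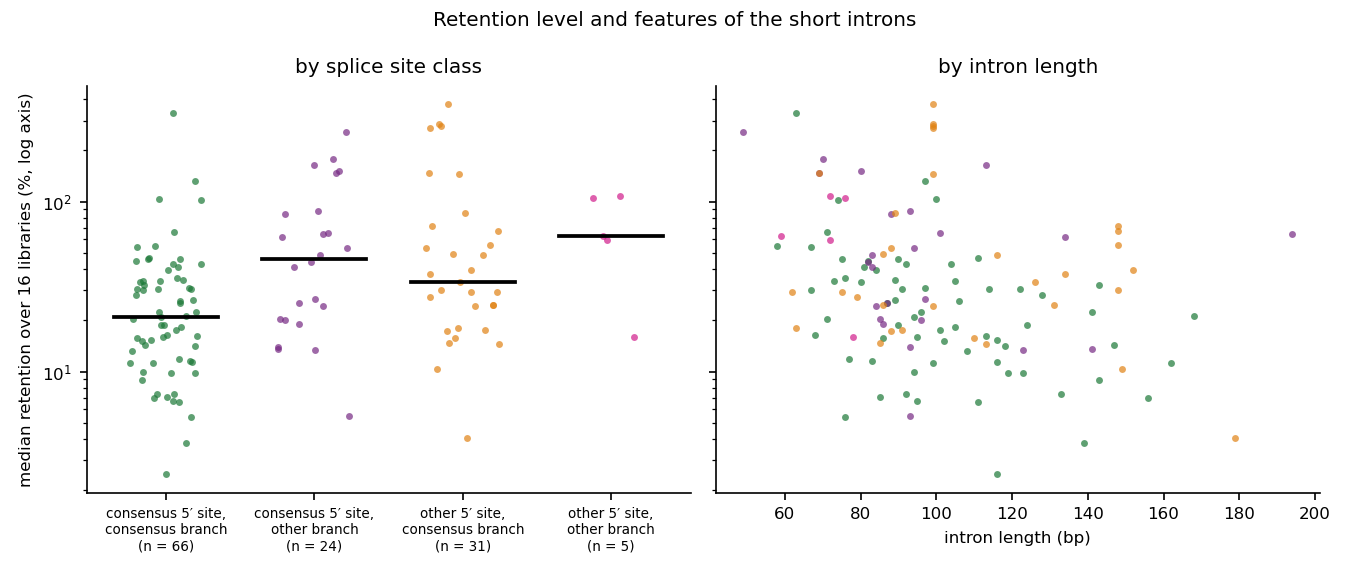
Median retention over 16 libraries (percent, log axis) of 126 short introns, on the left by splice site class with black bars at the class medians, on the right against intron length in bp with the same colours. The medians ran from 21.0% with both consensus signals to 62.7% with neither, and the classes overlapped widely.

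To see how the short introns responded to LiCl, their retention was compared between cultures within each library type. In polyadenylated libraries the median retention of 132 introns was 23.2% in the LiCl intron deletion culture, 34.98% in GFP high cells, 32.4% in GFP low cells and 32.2% in the LiCl wild type. It was 14.3% in NaCl, 7.77% in glucose, 17.5% in myriocin and 14.4% in fenpropimorph. All 4 LiCl medians were thus above those of the other cultures. In ribo-depleted libraries the medians of 126 introns were 39.6% in the LiCl intron deletion culture, 53.7% in GFP high cells, 58.2% in GFP low cells and 47.6% in the LiCl wild type, against 24.98% in NaCl, 18.4% in glucose, 37.6% in myriocin and 25.2% in fenpropimorph. The LiCl medians were again above the others, by little over myriocin for the intron deletion culture. Within each library the introns spread widely, with quartiles of 18.8 and 57.9% in the polyadenylated LiCl wild type.

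**Figure D2:**
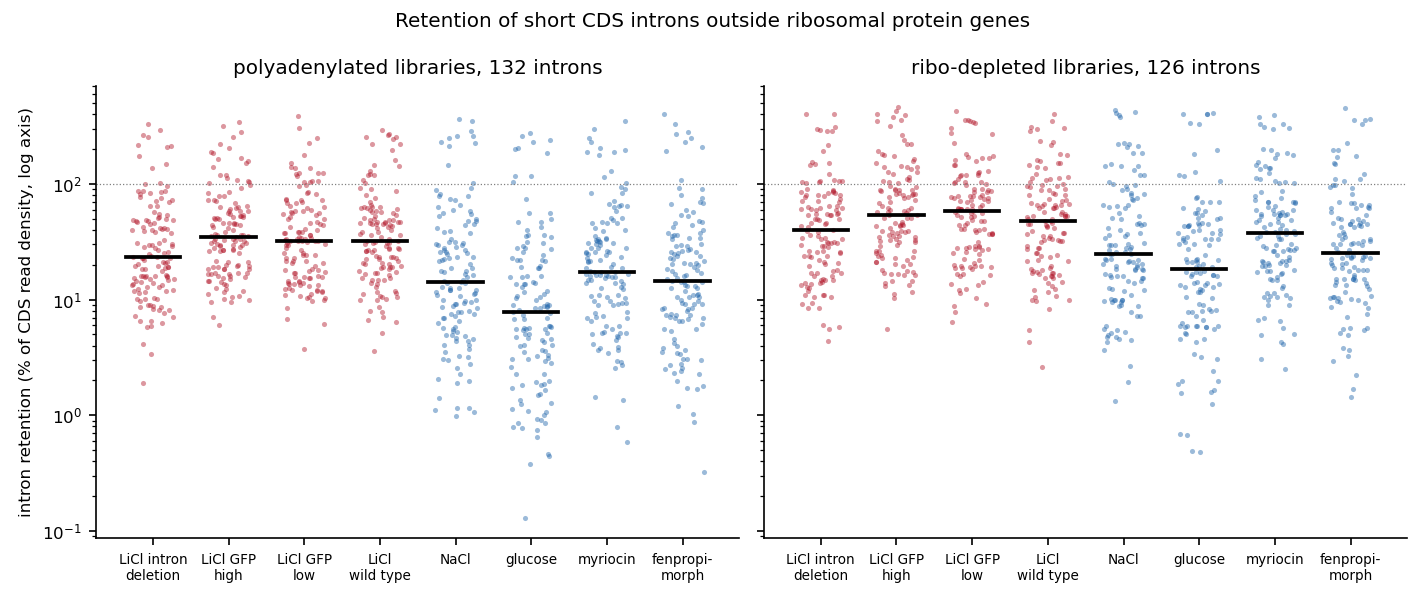
Retention (percent, log axis) of each short intron in the 8 polyadenylated libraries (left, 132 introns) and 8 ribo-depleted libraries (right, 126 introns). Points are introns, black bars medians, LiCl libraries are red and the others blue, and the dotted line marks 100%. LiCl medians lay between 23.2 and 58.2%, and glucose had the lowest median of each panel.

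In polyadenylated RNA the LiCl wild type had at least 2-fold higher retention than NaCl in 75 of 132 short introns (68.6% of all 296 introns), than glucose in 100 (78.4% of all), than myriocin in 55 (61.1% of all) and than fenpropimorph in 81 (69.6% of all). The short introns thus stood below the share of all introns in every one of these comparisons, by little against glucose. The comparisons have the LiCl library in common, and all introns include those of ribosomal protein genes, which are set apart below. The median log2 ratios were 1.17, 2.17, 0.79 and 1.14 against NaCl, glucose, myriocin and fenpropimorph, while those of all introns were 1.66, 2.66, 1.39 and 1.63. At least 2-fold lower retention in LiCl was found in 1 short intron against NaCl, 1 against glucose, 0 against myriocin and 1 against fenpropimorph, beside 1.01, 1.01, 0.676 and 1.01% of all introns.

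In ribo-depleted RNA the corresponding counts of 126 short introns were 46 against NaCl (60.1% of all 286 introns), 80 against glucose (71.7% of all), 25 against myriocin (49.7% of all) and 46 against fenpropimorph (59.8% of all). The median log2 ratios were 0.56, 1.31, 0.19 and 0.67, beside 1.60, 1.87, 0.98 and 1.49 for all introns. The difference to myriocin was the smallest, with 74 introns higher in LiCl and 52 lower. At least 2-fold lower retention in LiCl was found in 4, 2, 5 and 3 short introns against NaCl, glucose, myriocin and fenpropimorph, beside 2.8, 1.05, 3.15 and 1.75% of all introns.

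Retention at least 2-fold higher in the LiCl wild type than in all 4 other cultures was found for 48 of 132 short introns in polyadenylated RNA (55.7% of all introns) and for 20 of 126 in ribo-depleted RNA (46.2% of all). All 20 belonged to the 126 introns tested in both types and met the rule in both (44.1% of all 286 introns did so). The 41 other CDS introns outside ribosomal proteins gave 15 and 12, and the 89 ribosomal protein introns 86 and 86. The lower direction held for 0 short introns in polyadenylated RNA (0.338% of all) and for 1 in ribo-depleted RNA (0.699% of all), *RRT8*. Retention in all 4 LiCl libraries lay above that in all 4 others for 73 short introns in polyadenylated RNA (68.6% of all) and 43 in ribo-depleted RNA (59.1% of all). Both types gave this order for 39 short introns (54.9% of all). It lay below all others for 0 in polyadenylated RNA (0.676% of all) and for 2 in ribo-depleted RNA (1.75% of all), *RRT8* and *YBL111C*. These shares are read as descriptions of single libraries, and the short introns stood below all introns in each higher count. The share over all introns includes the ribosomal protein introns. In polyadenylated RNA the 2-fold rule was met by 36.4% of short introns and 36.6% of the other CDS introns outside ribosomal proteins, and all LiCl libraries were above the others in 55.3% of short and 53.7% of those other introns. In ribo-depleted RNA the shares were 15.9% of short and 29.3% of the other introns for the 2-fold rule, and 34.1% of short and 56.1% of the other introns for all LiCl libraries above, with no test of the difference.

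A retention ratio can move through the intron reads, the CDS reads or both. For the short introns, CDS reads scaled to the edgeR TMM effective library size (CPM) had median log2 ratios of LiCl over the 4 other cultures between -0.20 and -0.05 in polyadenylated and between -0.21 and 0.03 in ribo-depleted RNA. Intron CPM had medians between 0.70 and 1.88 in polyadenylated and between 0.20 and 1.26 in ribo-depleted RNA, close to the retention ratios. For ribosomal protein introns the CDS reads were lower in LiCl in every comparison, with medians between -2.64 and -1.44 in polyadenylated and between -3.38 and -1.83 in ribo-depleted RNA. Their intron reads had medians between 0.10 and 2.46 and between -0.58 and 1.57. The CDS thus moved more than the intron in ribo-depleted RNA, whereas in polyadenylated RNA the sizes of the changes overlapped. The short introns that passed the 2-fold rule against all 4 cultures were mixed. Of the 48 in polyadenylated RNA, intron CPM were higher in LiCl than in every other culture for 45 and CDS reads lower for 36. At least 2-fold changes were found in 16 for intron reads and in 7 for CDS reads, and of the 86 ribosomal protein introns 2 had 2-fold higher intron reads and 72 had 2-fold lower CDS reads than all 4 cultures. In ribo-depleted RNA the order was the other way round for the 20 short introns that passed. Intron CPM was higher in LiCl than in every other culture for 15 and CDS CPM lower for 17, at least 2-fold in 2 for the intron and in 8 for the CDS, with median log2 ratios of 0.82 for intron CPM and -1.11 for CDS CPM.

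**Figure D3:**
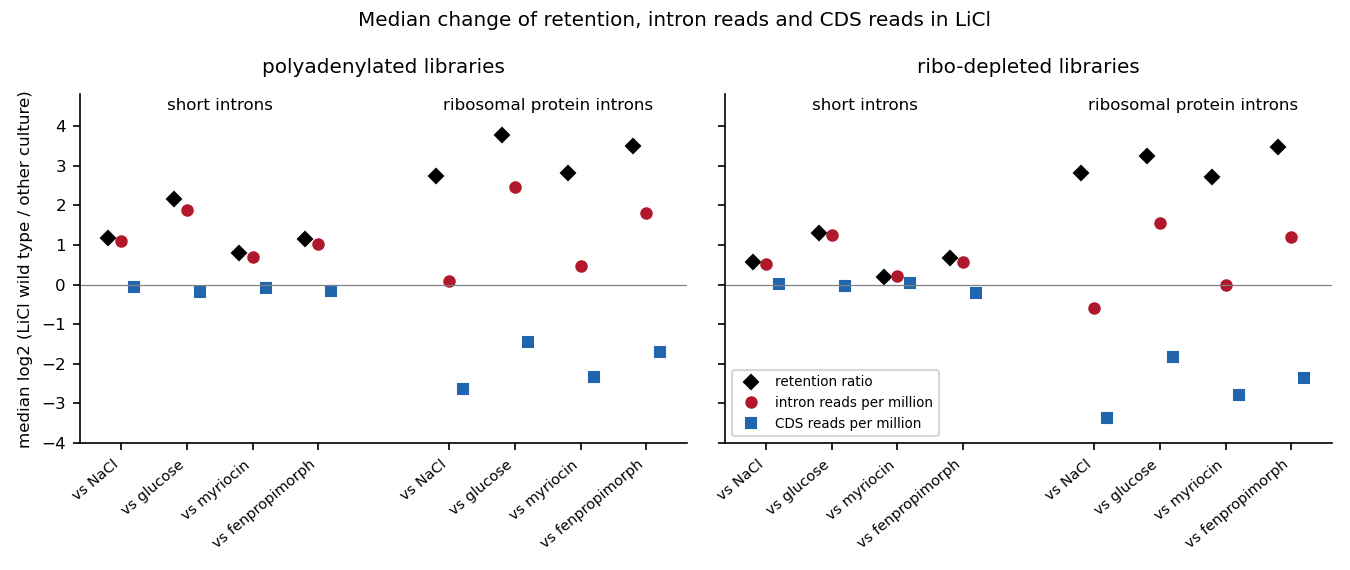
Median log2 ratios of the LiCl wild type over each of the 4 other wild-type cultures (x axis) for retention (black diamonds), intron CPM (red circles) and CDS CPM (blue squares), for short and for ribosomal protein introns. CDS medians of short introns stayed between -0.21 and 0.03, and those of ribosomal protein introns were between -3.38 and -1.44.

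The LiCl ratio of an intron below is the median of its 4 log2 ratios, and it was lower where the level was higher. When the 126 introns were divided into 3 groups of 42 by their median retention in the 4 other wild-type cultures in ribo-depleted RNA, the median log2 LiCl ratio in polyadenylated RNA was 1.69 in the lowest group (1.52 to 17.3% retention), 1.27 in the middle group (17.5 to 41.7%) and 0.47 in the highest group (44.1 to 419%). The 2-fold rule against all 4 cultures was met by 28, 13 and 4 introns of 42 each. Both sets of libraries come from the same RNA samples. By splice signal, the median LiCl ratio in polyadenylated RNA was 1.34 for 97 introns with TACTAAC and 0.84 for 29 without it, and in ribo-depleted RNA 0.79 and 0.30. For the 6 introns that open with GCATGT it was -0.01 and -0.35, and 5 of these are Y′ introns.

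The introns that differed most between LiCl and every other culture were those of *PMI40*, *RFA2*, *YIP3* and *CIN2*. Values are given for the intron deletion, GFP high, GFP low and wild-type LiCl libraries in this order, and then for NaCl, glucose, myriocin and fenpropimorph. The *PMI40* intron was retained at 5.87, 10.8, 10.3 and 10.2% in LiCl and at 1.89, 0.130, 0.790 and 0.880% in the other polyadenylated libraries. In ribo-depleted RNA it was retained at 14.9, 25.3, 20.8 and 23.8% in LiCl and at 4.31, 1.25, 5.04 and 3.68% in the others. The groups did not overlap in either type, and the smallest of the 8 log2 ratios of the LiCl wild type was 2.24 against myriocin in ribo-depleted RNA, with a 95% counting interval of 1.35 to 3.13. Counts were low, with 25 intron reads in the polyadenylated LiCl wild type and 1 in glucose, and the CDS reads were fewer in LiCl, 3479 against 8666 to 16022. In ribo-depleted RNA the intron CPM was 0.458 in the LiCl wild type and 0.616, 0.198, 0.472 and 0.363 in the others, so the higher ratio there came with fewer CDS reads, 1253 against 5361 to 9401.

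*RFA2* encodes the middle subunit of replication protein A, which coats single-stranded DNA. Its intron was retained at 16.1, 17.1, 14.5 and 26.2% in LiCl and at 6.47, 1.29, 7.18 and 2.27% in the others in polyadenylated RNA. In ribo-depleted RNA the values were 28.8, 39.5, 27.99 and 44.7% in LiCl and 8.92, 12.01, 8.97 and 5.71% in the others. All LiCl libraries were above all others, and the smallest log2 ratio of the wild types was 1.87, with an interval of 1.21 to 2.53. In polyadenylated RNA the intron reads moved more than the CDS reads, by little against NaCl, with log2 CPM ratios of 1.04 to 2.87 for the intron and -1.48 to -0.68 for the CDS. In ribo-depleted RNA the CDS moved more than the intron against glucose, with intron CPM of 0.676 in LiCl and 0.421 in glucose and CDS reads of 536 and 1109.

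*YIP3*, a membrane protein of vesicles between endoplasmic reticulum and Golgi, had 32.6, 49.8, 49.8 and 38.3% in LiCl and 8.51, 2.63, 10.97 and 9.14% in the other polyadenylated libraries. In ribo-depleted RNA it had 54.8, 56.3, 47.8 and 82.2% in LiCl and 18.5, 22.6, 20.9 and 19.0% in the others. The groups did not overlap, and the smallest log2 ratio was 1.81, although 54.4% of its CDS is overlapped by another CDS row, so that the CDS count may hold reads of both genes. *CIN2*, a factor that acts with a small GTPase in tubulin folding, stood at a much higher level. Its intron, which lacks TACTAAC, had 290.3, 255, 248 and 264% in LiCl and 78.1, 74.8, 84.3 and 69.0% in the others in polyadenylated RNA, and 219, 267, 269 and 218% in LiCl and 65.6, 50.2, 69.1 and 65.8% in the others in ribo-depleted RNA. The groups did not overlap in either type, and the 8 log2 ratios of the wild types lay within 1.65 to 2.12. For *YIP3* and *CIN2* the ratios came with both higher intron CPM and fewer CDS reads in LiCl. In polyadenylated RNA the intron CPM of *YIP3* was 2.185 in the LiCl wild type and 0.52 to 1.851 in the others, with 1972 CDS reads against 4067 to 4721. For *CIN2* it was 2.38 against 1.165 to 1.9, with 468 CDS reads against 577 to 975.

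**Figure D4:**
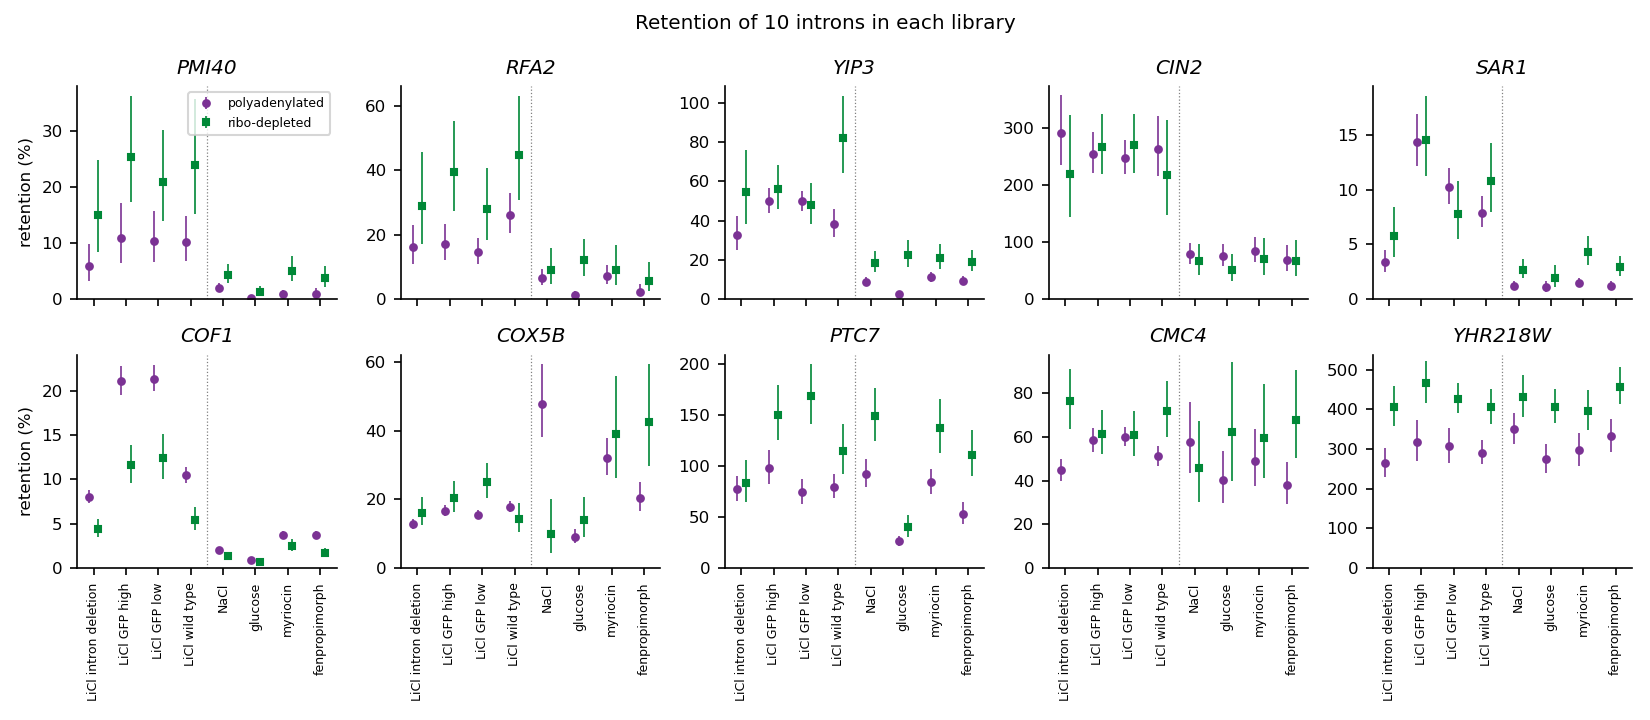
Retention (percent) of 10 short introns in each culture (x axis), in polyadenylated (circles) and ribo-depleted (squares) libraries, with 95% Wilson intervals that cover counting error only. The dotted line parts the 4 LiCl libraries from the 4 others. *PMI40*, *RFA2*, *YIP3*, *CIN2*, *SAR1* and *COF1* were higher in every LiCl library of a type than in every other, whereas *COX5B*, *PTC7*, *CMC4* and *YHR218W* overlapped.

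The most completely spliced introns also differed by a large factor. *SAR1* had 3.37, 14.4, 10.2 and 7.88% in LiCl and 1.17, 1.06, 1.44 and 1.19% in the other polyadenylated libraries, and its 8 log2 ratios of the wild types ran from 1.33 to 2.90. *COF1* had 8.07, 21.1, 21.4 and 10.5% in LiCl and 2.05, 0.921, 3.67 and 3.70% in the others, with ratios of 1.13 to 3.51. Both sorted populations exceeded the other LiCl cultures at *COF1*. *TUB1* had 1.90, 6.04, 3.73 and 3.56% in LiCl and 1.10, 0.442, 0.582 and 0.322% in the others, from 11 to 34 and from 2 to 12 intron reads. *RPO26* had 11.6, 14.3, 13.3 and 14.9% in LiCl and 4.801, 1.09, 5.60 and 1.69% in the others in polyadenylated RNA. In ribo-depleted RNA the LiCl wild type, at 2.64%, lay below NaCl, myriocin and fenpropimorph at 5.27, 4.16 and 3.85%.

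*DTD1*, which encodes a deacylase of D-aminoacyl-tRNAs, had the widest spread over the 16 libraries, with an SD of 2.34 on the log2 scale. That value rests on the ribo-depleted glucose library, which held 0 intron reads and whose retention is set by the added 0.5. Without that library the SD was 1.97, below the 2.12 of *PMI40*. Its retention was 21.1, 29.4, 37.4 and 19.4% in LiCl and 4.07, 0.866, 6.99 and 7.35% in the other polyadenylated libraries. The polyadenylated LiCl wild type held 12 intron reads against 12, 2, 14 and 12 in the others, but 410 CDS reads against 1958, 1841, 1323 and 1084. The higher ratio thus came with fewer CDS reads, and relative to library size the median log2 ratio of the intron reads was -0.43. *ARP9*, an actin-related subunit of chromatin remodelling complexes, had an SD of 1.87.

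The members were also described by gene function, beside a median LiCl ratio of all 126 introns of 1.17 on the log2 scale in polyadenylated and 0.64 in ribo-depleted RNA. The 2-fold rule against all 4 cultures was met by 45 and 20 of these 126. The 52 introns in none of the lists had median ratios of 0.94 and 0.39, and 11 and 1 of them passed. No test of a difference between lists was run. The 9 introns of ubiquitin and proteasome genes had medians of 1.34 and 0.95, and 5 and 2 of them passed the 2-fold rule against all 4 cultures. *RUB1*, the ubiquitin-like modifier of cullins, had 46.1, 46.4, 45.8 and 45.6% in LiCl and 12.8, 3.98, 19.2 and 14.6% in the others in polyadenylated RNA, with nearly the same value in all LiCl libraries. *UBC4*, a ubiquitin-conjugating enzyme whose close paralog *UBC5* may share reads with it, had 10.2, 7.13, 6.81 and 5.13% in LiCl and 1.15, 1.84, 1.36 and 2.34% in the others. *UBC8*, the enzyme that marks fructose bisphosphatase, had 12.7, 13.4, 12.1 and 17.0% in LiCl and 12.1, 11.7, 17.1 and 15.6% in the others in ribo-depleted RNA, where the groups overlapped.

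The 19 introns of secretion and vesicle traffic genes had medians of 1.58 and 0.88, and 8 and 6 passed the 2-fold rule. *VMA10*, a stalk subunit of the vacuolar proton pump, had 9.66, 11.2, 11.2 and 11.9% in LiCl and 2.58, 0.908, 3.63 and 2.71% in the others in polyadenylated RNA. *YOP1*, which shapes tubules of the endoplasmic reticulum, had a median ratio of 1.93, and *SFT1*, a Golgi SNARE, one of 0.52. The 11 introns of cytoskeleton and cell division genes had medians of 1.63 and 0.85, with 6 and 2 passing, and include *CIN2*, *COF1* and *YSC84*, an actin-binding protein whose median ratios were 0.58 and 0.85.

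Among splicing and RNA processing genes the medians were 1.37 for 10 introns and 1.02 for 8, and 7 and 3 passed the rule. *LSM7*, a subunit of the ring that binds U6 RNA, had 23.1, 26.7, 32.0 and 26.1% in LiCl and 7.29, 4.53, 9.04 and 6.94% in the others in polyadenylated RNA. *LSM2*, a subunit of the same ring, had median ratios of 0.47 and 0.32, and *YSF3*, a subunit of the U2-associated SF3b complex, 1.13 and 1.33. The 13 introns of transcription, chromatin and DNA repair genes had medians of 1.27 and 0.75, with 4 and 3 passing. *SRB2*, a Mediator subunit whose intron lacks TACTAAC, had 148, 63.4, 85.9 and 119% in LiCl and 39.0, 35.6, 46.4 and 30.5% in the others. *TAF14*, a subunit of several transcription complexes, had median ratios of 1.47 and 1.05, and *IWR1*, an import factor of RNA polymerase II, 0.75 in both types, with an opposite-strand reading frame over its intron.

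A short list of mitochondrial genes (*COX5B*, *ERV1*, *MRPL44*, *OM14*, *QCR10* and *RIM1*) had medians of 1.34 for 6 introns and 0.55 for 5 without *RIM1*, and 2 and 0 passed. It leaves out other mitochondrial members, of which *CMC4*, *CMC2*, *MRX20* and *YML6* are described below and *YML6* passed in polyadenylated RNA. *QCR10*, a subunit of the cytochrome bc1 complex, had median ratios of 1.57 and 0.55, and *OM14*, a protein of the outer membrane, 0.82 and 0.11. *COX5B* encodes the form of cytochrome c oxidase subunit 5 that is made when oxygen is scarce. Its intron had 12.8, 16.7, 15.5 and 17.8% in LiCl and 47.8, 9.08, 32.1 and 20.5% in the other polyadenylated libraries, so that the LiCl libraries lay between glucose and fenpropimorph. In ribo-depleted RNA it had 16.1, 20.5, 25.1 and 14.3% in LiCl and 9.92, 13.97, 38.9 and 42.5% in the others. Its CDS reads numbered 12554 in the polyadenylated LiCl wild type and 926, 4765, 2281 and 2336 in the others, and its intron reads 431 and 85, 83, 141 and 92. The list of lipid and glycan synthesis genes had medians of 1.46 and 0.83 over 8 introns, with 4 and 3 passing, but it included *DTD1*, whose product acts on tRNA. Without *DTD1* the medians of 7 introns were 1.06 and 0.33, with 3 and 2 passing. *BET4*, a subunit of the enzyme that prenylates Rab proteins, stood both in this list and in the secretion list. *SPT14* and *GPI15*, both in the enzyme that starts glycosylphosphatidylinositol anchors, had median ratios of 0.90 and 0.97 in polyadenylated and of 0.15 and 0.33 in ribo-depleted RNA. *SCS22*, a membrane protein of the endoplasmic reticulum, had 0.84 and 0.19.

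For *PTC7* and *SRC1*, messages that keep all or part of the intron are known to encode proteins. The unspliced *PTC7* message encodes a form at the nuclear envelope and the spliced one a mitochondrial form. *PTC7* had 76.9, 98.0, 74.1 and 79.5% in LiCl and 92.5, 25.9, 84.3 and 52.9% in the others in polyadenylated RNA, and 83.2, 150.5, 169 and 114% in LiCl and 149, 39.8, 137 and 111% in the others in ribo-depleted RNA. Glucose was the lowest library of both types. NaCl and myriocin lay within the range of the LiCl libraries in both types, and fenpropimorph lay below all 4 LiCl libraries in polyadenylated RNA and within their range in ribo-depleted RNA. *SRC1*, which encodes an inner nuclear membrane protein and uses alternative 5′ splice sites, had 51.3, 33.4, 32.7 and 44.7% in LiCl and 17.6, 22.1, 39.8 and 33.8% in the other polyadenylated libraries. Myriocin and fenpropimorph lay above the sorted LiCl cells.

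The introns that varied least were *YHR218W*, *CMC4* and *LDS2*, with SDs of 0.27, 0.29 and 0.30 on the log2 scale. *CMC4* encodes a small protein of the mitochondrial intermembrane space, and its intron opens with GTTTGT. It had 44.8, 58.5, 59.9 and 51.1% in LiCl and 57.9, 40.4, 49.1 and 37.9% in the others in polyadenylated RNA. Its intron and CDS reads moved together, with 530 intron and 3200 CDS reads in the LiCl wild type and 51 to 68 intron and 311 to 557 CDS reads in the others. Of the other introns that lack both consensus signals, *ATG38*, a subunit of the autophagy lipid kinase, had median LiCl ratios of 1.75 and 0.71. *YCL002C*, of unknown function, had 0.61 and 0.49, and *MRX20*, a mitochondrial carrier protein, 0.29 and 0.14. *YHR218W* had 264, 318, 306 and 291% in LiCl and 349.5, 274, 296 and 332% in the others, *YML133C* had negative ratios in all 8 comparisons, from -0.48 to -0.06, and the ratios of *LDS2* ran from -0.50 to 0.23 and those of *YJR112W-A* from -0.44 to 0.18.

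Within LiCl, the intron deletion culture had lower retention than the wild type in 107 of 132 short introns in polyadenylated RNA, with a median log2 ratio of -0.36, and in 92 of 126 in ribo-depleted RNA, with a median of -0.18. All introns had medians of -0.36 and -0.13, with 250 of 296 and 209 of 286 lower. Between the sorted populations the ratio of GFP high over GFP low cells had a median of 0.17 in polyadenylated RNA, with 95 of 132 introns higher in GFP high cells, and 0.08 in ribo-depleted RNA, with 74 of 126 higher. The same medians over all introns were 0.15 and 0.03, with 201 of 296 and 150 of 286 higher.

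Among the other wild-type cultures, glucose had the lowest retention, in a culture that the paper places in late exponential phase. In polyadenylated RNA it was the lowest of the 8 libraries for 92 of 132 short introns (63.5% of all introns) and in ribo-depleted RNA for 75 of 126 (42.3% of all). Its median log2 ratio to myriocin was -1.21 in polyadenylated and -0.99 in ribo-depleted RNA, beside -0.96 and -0.65 over all introns. NaCl and fenpropimorph had close medians, with log2 ratios of NaCl over fenpropimorph of 0.09 in both types. Myriocin exceeded fenpropimorph by a median of 0.32 and 0.44. A LiCl library was the highest of the 8 for 118 of 132 short introns in polyadenylated RNA (92.6% of all introns) and for 104 of 126 in ribo-depleted RNA (89.5% of all), shares of 89.4 and 82.5% that lay below those of all introns.

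The comparison of polyadenylated with ribo-depleted RNA has 8 pairs of libraries and was the only one with a test. Intron counts were fitted with edgeR's quasi-likelihood model, with CDS counts as offset and the RNA sample as block, over 286 introns with Benjamini-Hochberg adjustment. Retention was lower in polyadenylated than in ribo-depleted RNA for 83 of 126 short introns (61.2% of all introns) and higher for 4 (3.15% of all), and 39 did not pass. The median log2 ratio was -0.79, and -0.80 over all introns, so the shares and medians of short introns were close to the background. The ratio had a Spearman correlation of -0.10 with CDS length over the 126 introns.

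The 3 largest decreases were in *ARP9*, *MUD1* and *YML6*. *ARP9* had 13.5, 15.2, 12.1 and 32.3% in LiCl and 4.91, 0.744, 5.14 and 4.59% in the other polyadenylated libraries, and 69.2, 59.6, 65.9 and 84.2% in LiCl and 44.6, 17.3, 45.4 and 33.3% in the other ribo-depleted ones. Every polyadenylated library was below its ribo-depleted partner, with a log2 ratio of -2.52 (mean of pairs -2.74 ± 0.95 SD, n = 8 pairs; edgeR adjusted p = 3.92e-05). *MUD1*, the U1 snRNP protein that helps to recognise 5′ splice sites, had median retention of 13.4% in polyadenylated and 72.0% in ribo-depleted libraries and a log2 ratio of -2.49 (edgeR adjusted p = 3.47e-05). *YML6*, a mitochondrial ribosomal protein, had 9.21 and 51.2% and a ratio of -2.24 (edgeR adjusted p = 3.22e-05), and both introns were lower in 8 of 8 pairs. *VMA10* had 6.65 and 29.6%, a ratio of -2.18 and a narrow spread of pairs (SD 0.31, n = 8, edgeR adjusted p = 6.4e-06). With its intron reads scaled to library size in place of CDS reads, the log2 ratio of *VMA10* was 0.52, in the other direction.

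The 4 short introns with higher retention in polyadenylated RNA were in *COF1*, *CGI121*, *UBC9* and *CMC2*. *COF1* had median retention of 5.88% in polyadenylated and 3.44% in ribo-depleted libraries, higher in 8 of 8 pairs, with a log2 ratio of 0.79 (edgeR adjusted p = 0.000541). *CGI121*, a subunit of the KEOPS complex that modifies tRNAs, had 36.3 and 22.6%, higher in 6 of 8 pairs, and a ratio of 0.78 (edgeR adjusted p = 0.0189). *UBC9*, the SUMO-conjugating enzyme, had 23.8 and 12.7%, higher in 7 of 8 pairs, and a ratio of 0.67 (edgeR adjusted p = 0.0238). *CMC2*, a protein of cytochrome c oxidase assembly, was named because the count is small; its ratio of 0.58 held in 5 of 8 pairs (edgeR adjusted p = 0.0446). Among the members with stable or high retention, *PTC7* had a ratio of -0.69 (edgeR adjusted p = 0.00198) and was lower in 8 of 8 pairs, while *SRC1* had 0.09 and *CIN2* 0.21, neither past the threshold. When intron reads were scaled to library size in place of CDS reads, 29 short introns were higher and 47 lower in polyadenylated RNA. The share over all introns under that scaling is not given here.

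**Figure D5:**
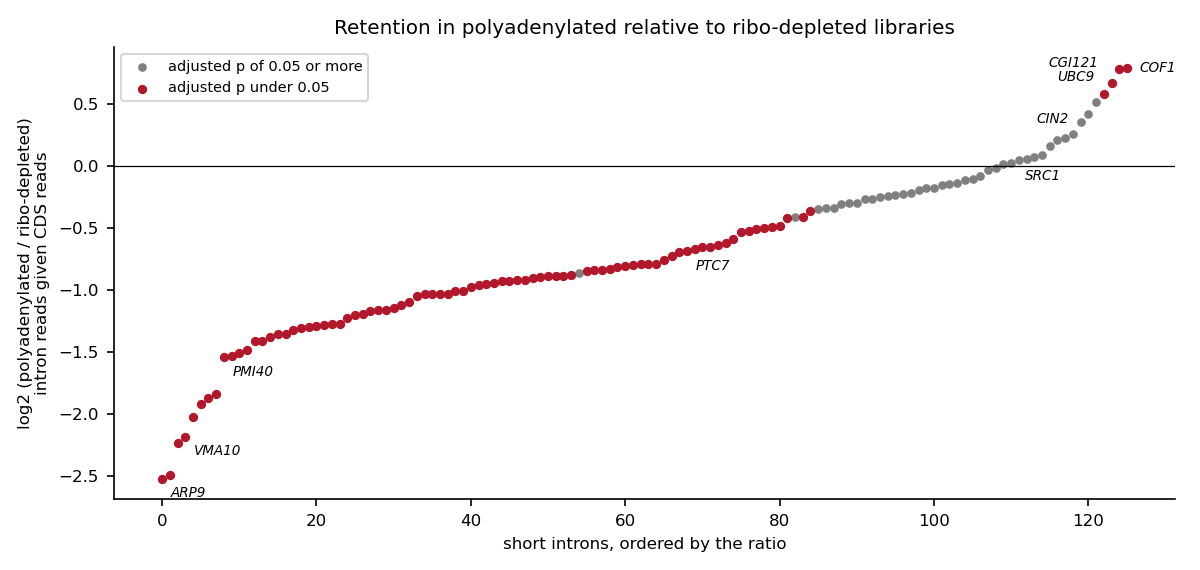
Log2 ratio of polyadenylated over ribo-depleted RNA in the edgeR fit (y axis) for 126 short introns in increasing order (x axis). Red points passed an adjusted p of 0.05 and grey points did not; 83 passed below 0 and 4 above 0, with *ARP9* at -2.52 and *COF1* at 0.79.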

How the data were processed

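Paired 100-bp reads of 16 libraries were trimmed with cutadapt, aligned to R64 and counted with featureCounts by the authors; the labels name HISAT2, and the paper's methods TopHat or HISAT2. The strand setting and the handling of read pairs and multi-mapping reads are not given in the sources used here. The deposited values are raw read counts per CDS, CDS intron and 5′ UTR intron, without normalization. The deposited feature lengths are another kind of value, in bp, taken from the authors' annotation. The counted chromosomes equal those of the RefSeq R64 assembly, from which splice signals were read, and symbols were found for 132 of 133 members.

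Members and gene lists were chosen with earlier results of these data known. Retention was computed as described, with a pseudocount of 0.5, for introns with means of at least 10 intron and 10 CDS reads in a library type. With 1 library per culture, LiCl was compared by log2 ratios, with a threshold of 2-fold and no test. Wilson intervals for retention and normal intervals for log2 ratios (95%) cover counting error only, since reads without molecular identifiers are not independent molecules. Polyadenylated and ribo-depleted libraries were compared with edgeR's quasi-likelihood test on intron counts, with the log CDS count as offset, the RNA sample as block and Benjamini-Hochberg adjustment over 286 introns. The 8 RNA samples differ in treatment and strain, so the p-values measure the spread over these samples. The fit was tested on simulated data.

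Named introns are the 5 with the highest and 5 with the lowest median retention, the 4 largest and 4 smallest changes in LiCl by the weakest of 8 ratios, the 3 largest significant ratios between library types in each direction, the 3 most and 3 least variable, the 3 members of each gene list with most intron reads, *PTC7* and *SRC1*, and the 5 with most intron reads that lack both GTATGT and TACTAAC. *CMC2*, *BET4*, *YBL111C*, *YLR202C* and the members below the read minimum were named after their values were seen. Alternatives tried: pseudocount 1, the filter left out, a minimum of 50 intron reads, read length added to lengths, TMM or DESeq2 library scaling in place of CDS reads, DESeq2 and limma, no block, subsets of RNA samples, and members that overlap another gene left out. Leaving out introns in several genome copies, and hosts with over 10% of the CDS overlapped, was added after the data were seen, as were the gene list without *DTD1* and SDs without libraries that held 0 intron reads. Software was R 4.3.3, edgeR 4.0.16, DESeq2 1.42.0, limma 3.58.1 and Python 3.11.15.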

Additional observations from a re-analysis of the deposited data

Results flagged for a closer look

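In 5 short introns the LiCl wild type had higher retention than all 4 other cultures in polyadenylated RNA and lower retention than all 4 in ribo-depleted RNA. These are 3.97% of 126 short introns, beside 6 of all 286 introns (2.1%), and 3 of the 5 had small ratios, as given below. The difference between the library types was not tested. *RRT8*, a gene for a spore wall protein, had a median log2 ratio of 1.13 in polyadenylated and -1.09 in ribo-depleted RNA, on 34 and 7 intron reads in the LiCl wild type. *BET4*, a subunit of the enzyme that attaches geranylgeranyl groups to Rab proteins, had 1.06 and -0.74, and other CDS rows overlap 30.0% of its CDS. *YJR112W-A* had 0.10 and -0.24. *YLL067C* had 0.25 and -0.30 and *YLL066C* 0.086 and -0.32, and both are Y′ introns with 7 identical copies.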

How the results depend on the processing

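With 1 library per culture, counting error is the only error known for LiCl, and introns with fewer than 50 mean reads carry most of it. Each short intron has a median over the 8 libraries of a type. The median of these values over the introns was 21.8% in polyadenylated and 37.1% in ribo-depleted RNA. It was 12.7 and 21.5% with read length added to the lengths, and 28.1 and 52.5% with at least 50 mean intron reads. That minimum leaves fewer introns. In polyadenylated RNA it left 46, 63, 31 and 49 introns at least 2-fold higher in LiCl than in NaCl, glucose, myriocin and fenpropimorph, 27 higher than in all 4 and 46 with all LiCl libraries above the others. In ribo-depleted RNA it left 23, 34, 9 and 20 higher, 0, 0, 1 and 0 lower, 7 higher than in all 4 and 15 with all LiCl libraries above. The shares of short and of all introns at that minimum are not given here, so these counts do not show whether a share changed. With library sizes in place of CDS reads, 2 introns were at least 2-fold lower than NaCl in polyadenylated RNA under TMM and under DESeq2 scaling, 2 and 3 were lower than myriocin, and 1 was lower than glucose in ribo-depleted RNA under both. Without hosts overlapped by other CDS rows, chosen after seeing the data, 0 were lower than fenpropimorph in polyadenylated RNA. The LiCl ratio of *DTD1* turned to -0.43 (polyadenylated) and -0.17 (ribo-depleted) under TMM and to -0.47 and -0.20 under DESeq2 scaling, where its fewer CDS reads no longer count.

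Between library types, the 4 higher and 83 lower introns became 29 and 47 with TMM library sizes, 1 and 46 with at least 50 reads and 0 and 28 with no block for the RNA sample, the pairing of libraries from 1 RNA sample. These are counts of short introns, without the share over all introns under the same setting. The higher count was 2 with limma, 1 without the sorted samples and 1 with wild-type samples only. Leaving out each RNA sample gave 2 to 4 higher and 75 to 83 lower, with 2 higher without the LiCl wild type or without myriocin. Among the introns named by rule, the direction turned under TMM for *CMC4* (0.50), *RUB1* (1.15), *VMA10* (0.52), *LSM2* (0.78), *COX5B* (1.59), *SCS22* (0.058) and *GPI15* (0.68). Other introns that turned are not listed here. *CMC4*, *LSM2* and *COX5B* had not passed the threshold in the main fit, and *SCS22* did not pass it under TMM (edgeR adjusted p = 0.784). The cause was not tested.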
